A study of Mus musculus with 20 samples.

Results

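Resident cardiac macrophages are the tissue macrophages of the heart, and 9 genes that mark them were followed here across 4 diets. The genes were Folr2, Cd163, Mrc1, Mgl2, Lyve1, Timd4, Cbr2, F13a1, and Pf4, taken by gene symbol from the deposited counts of left ventricular tissue. All 9 were among the 15956 genes listed, and all 9 were among the 13991 genes that passed the filter on low counts. The mice were male, and all are labelled as 18 months old. The study's text gives a younger age at tissue collection than the labels, and the conflict is unresolved here. The normal protein (NP) group received a diet with the usual protein content, and the low protein (LP) group received a diet with less protein. The high-fat (HF) group received fat-rich food with the usual protein content, and the HF + LP group received fat-rich food with less protein. Each group had 5 mice, and each mouse gave 1 of the libraries listed. The label of LP mouse 5 alone also gives a sample number, which is above 1. No other LP library listed carries that animal number, and the reason for the sample number was not given in the sources used here. The strain was not given in the sources used here, and the labels name no genetic change. The libraries came from whole ventricular tissue, so that fewer cells of a type and less RNA per cell cannot be told apart.

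Resident macrophages settle in the heart before birth and largely maintain themselves by local division, with limited input from blood monocytes. They take up dying cells, debris, and discarded mitochondria, and are usually recognized by the surface proteins LYVE1, TIMD4, and FOLR2 and by the near absence of CCR2. Monocyte-derived macrophages carry CCR2 on arrival and increase in the heart under metabolic or ischemic load. The 9 genes fall into uptake receptors (Folr2, Cd163, Mrc1, Mgl2, Lyve1, and Timd4), enzymes (Cbr2 and F13a1), and a chemokine (Pf4).

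The transcription factors PU.1 and MAF act in macrophages, and the promoter windows of the genes were searched for a short motif of each. RefSeq windows were at hand for 8 of the 9 genes, with no entry for Lyve1, and covered the 250 bases before a transcription start on GRCm38.p6. Folr2 and F13a1 had 2 windows each, which gave 10 in all. The core letters of PU.1 sites, GAGGAA on either strand, were found in 5 of the 10 windows, namely those of Mrc1, Pf4, Mgl2, Cbr2, and the first of F13a1. Of 32817 promoters of the same length, 23.3% held these letters. The letters TGCTGA on either strand, which form part of MAF sites, were found in 3 windows, both of Folr2 and that of Timd4, compared to 16.1% of all promoters. Matches were counted whether or not they overlapped another, and a match is a description of the letters and not a bound site. One window each of 4 genes is shown 5′ to 3′ on the strand of the gene, with the matched letters in capitals. For Folr2 and F13a1 it is the window at the outermost start. The other window of Folr2 also held TGCTGA, and that of F13a1 held neither motif. Folr2 and F13a1 are shown because their HF and NP mice did not overlap, and Mgl2 and Pf4 because their mean levels in HF + LP lay closest to those in HF.
Folr2, chr7:101857191-101857440, minus strand: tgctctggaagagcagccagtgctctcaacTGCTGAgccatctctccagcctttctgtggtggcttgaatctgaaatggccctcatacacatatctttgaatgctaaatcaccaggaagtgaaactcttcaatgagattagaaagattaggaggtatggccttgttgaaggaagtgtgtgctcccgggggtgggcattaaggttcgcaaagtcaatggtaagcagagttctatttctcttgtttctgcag
F13a1, chr13:37050245-37050494, minus strand: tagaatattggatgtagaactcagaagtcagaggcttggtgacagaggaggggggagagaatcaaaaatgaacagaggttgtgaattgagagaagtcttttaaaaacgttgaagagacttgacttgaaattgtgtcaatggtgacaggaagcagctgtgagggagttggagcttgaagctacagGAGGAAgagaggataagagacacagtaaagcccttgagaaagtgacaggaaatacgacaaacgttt
Mgl2, chr11:70130107-70130356, plus strand: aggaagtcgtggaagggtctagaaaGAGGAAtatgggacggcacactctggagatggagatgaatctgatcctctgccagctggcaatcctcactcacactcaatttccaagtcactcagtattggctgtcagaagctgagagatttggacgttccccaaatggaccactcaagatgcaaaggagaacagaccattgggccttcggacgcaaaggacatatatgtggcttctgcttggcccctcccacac
Pf4, chr5:90772185-90772434, plus strand: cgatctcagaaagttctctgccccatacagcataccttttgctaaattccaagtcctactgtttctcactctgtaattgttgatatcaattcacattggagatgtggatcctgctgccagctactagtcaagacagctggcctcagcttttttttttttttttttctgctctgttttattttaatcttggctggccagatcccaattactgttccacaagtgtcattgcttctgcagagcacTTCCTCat

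Levels are given as normalized counts, which are read counts scaled to a common library size. Total counts lay between 12559607 and 23331907 per mouse. One library, LP mouse 13, had a median correlation of 0.908 with the other LP libraries, below the range of 0.944 to 0.979 in the other 19. It also had the highest adipocyte marker sum, 5159 normalized counts, and the highest atrial marker sum, 245760 normalized counts, of the 20 mice. Markers of cardiomyocytes, the main cells of the ventricle, summed to between 595570 and 955940 normalized counts. General macrophage markers, 18 genes including Csf1r and Adgre1, summed to between 5122 and 11636, and none of these 18 genes was at 0 throughout any group. The 9 resident genes together summed to between 4160 and 4821 normalized counts in HF mice, between 3267 and 3786 in NP mice, between 2570 and 4667 in LP mice, and between 3237 and 4254 in HF + LP mice. The lowest HF mouse thus lay above the highest NP mouse, whereas the LP and HF + LP mice overlapped with both.

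**Figure D1:**
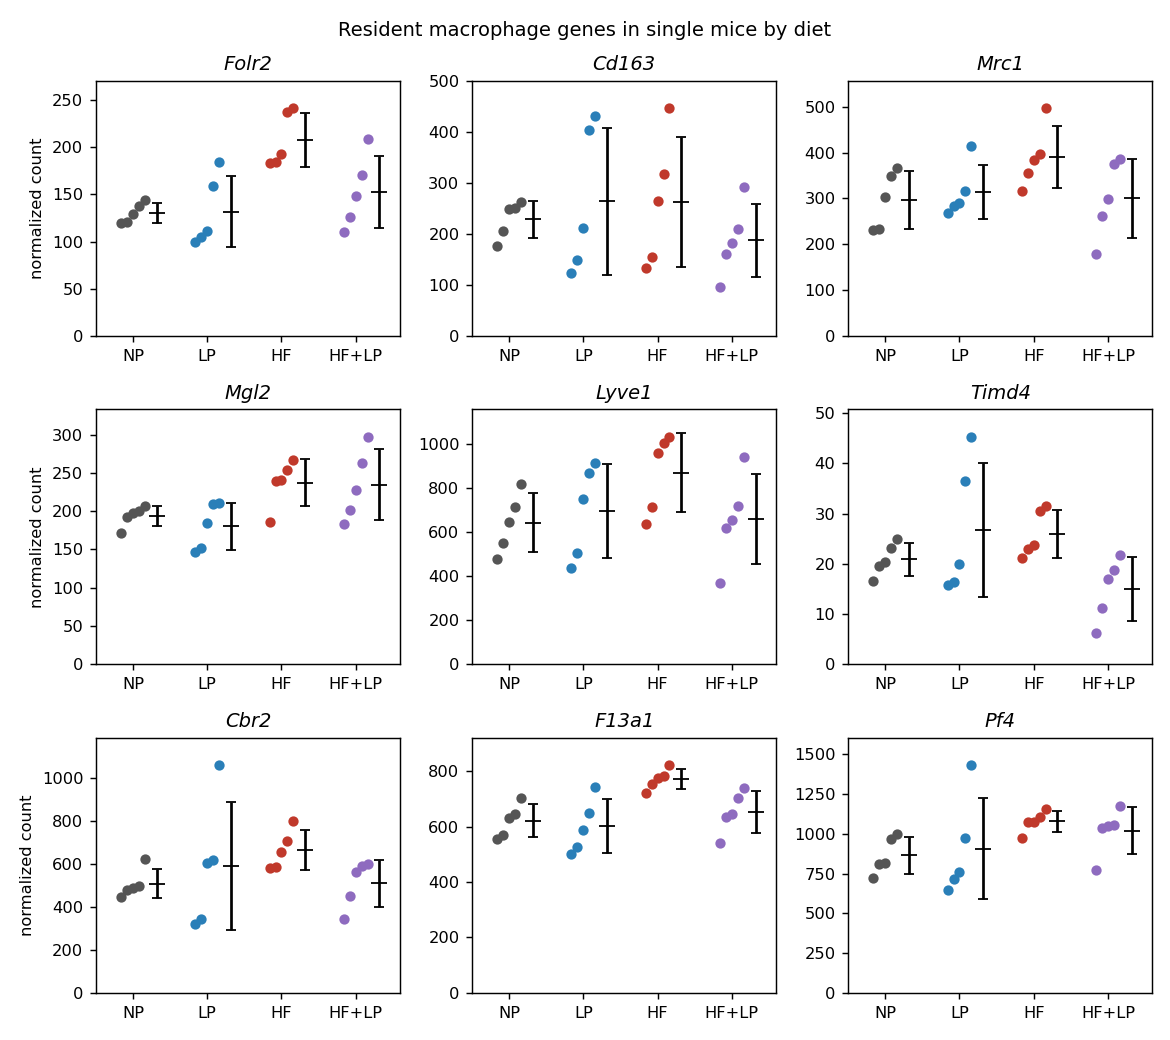
Normalized counts of the 9 resident macrophage genes (vertical axis, 1 panel per gene, starting at 0) in single mice by diet, with the mean and SD of each group at the right of its points. In Folr2 and F13a1 all 5 HF mice lie above all 5 NP mice, and the LP mice spread widely in Cd163, Timd4, and Cbr2.

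High-fat feeding was compared with the normal protein diet first. Each of the 9 genes had a higher fitted level in HF than in NP mice, with log2 fold changes from 0.20 for Cd163 to 0.67 for Folr2 and a median of 0.32. Over all 13991 genes tested, the median was −0.00 and 49.8% had a log2 fold change above 0. None of the 9 genes reached the threshold, an adjusted p under 0.01 with a mean normalized count over 50, which 37 genes (0.264%) passed. At an unadjusted p under 0.05, 2 of the 9 were higher, Folr2 and F13a1, compared to 5.17% of all genes. That count was 7 with only the HF and NP libraries in the fit and 4 with RLE size factors, DESeq2, or the animal number as a block. It was 5 without LP mouse 13 or HF + LP mouse 3, 4 without NP mouse 5, LP mouse 20, HF + LP mouse 1, or HF + LP mouse 5, and 6 without LP mice 13 and 20, a setting chosen after the data had been seen. Folr2 and F13a1 had no overlap between the HF and NP mice, which held for 2.07% of all genes with a higher level in HF. The libraries of these groups also differed as a whole. Mitochondrial genes took 38.1% to 39.8% of counts in HF and 41.3% to 47.1% in NP mice, and the TMM scaling factors were 1.0248 to 1.1005 in HF and 0.906 to 0.998 in NP, with no overlap in either. The part of these library measures in the levels of the 9 genes was not tested, and with RLE size factors the median of the 9 was 0.34. The number of genes called over all was 20 without NP mouse 6 or without HF mouse 4 and 69 without LP mouse 13. Timd4 had a mean of 22.2 normalized counts, under the minimum of 50, and so could not be called in any comparison.

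Folr2 encodes a folate-binding protein of the macrophage surface. It lies on the minus strand at chr7:101839988-101857194 (GRCm38), where an antisense gene, Gm10602, and a processed pseudogene, Gm45319, overlap it on the opposite strand. Its normalized counts were 121, 137, 144, 129, and 120 in the 5 NP mice. They were 193, 241, 184, 183, and 237 in the 5 HF mice, every one above the highest NP mouse. Mean levels were 130 ± 10.5 in NP and 208 ± 28.9 in HF (SD, n = 5 mice each). The level was 1.59-fold higher in HF, a log2 fold change of 0.67 (95% interval 0.30 to 1.05), with an unadjusted p of 0.00129 and an adjusted p of 0.0666 in the edgeR quasi-likelihood test across all genes. With only the HF and NP libraries in the edgeR fit the adjusted p of Folr2 was 0.011, and in DESeq2 it was 0.0153.

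F13a1 encodes the A subunit of coagulation factor XIII, a transglutaminase that macrophages also make. It lies on the minus strand at chr13:36867178-37050244, with the antisense genes Gm49144 and Gm30489 overlapping it. Its NP mice measured 702, 647, 570, 632, and 554 normalized counts. Its HF mice measured 783, 722, 821, 754, and 776, so that the lowest HF mouse lay just above the highest NP mouse. The means were 621 ± 59.98 in NP and 771 ± 36.5 in HF (SD, n = 5), and the log2 fold change was 0.31 (95% interval 0.08 to 0.54, unadjusted p = 0.0103, adjusted p = 0.188, edgeR). Among the 9 genes, F13a1 in HF had the narrowest spread between mice of any gene and diet, with a coefficient of variation of 4.73%.

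The scavenger and lectin receptors came next. Mrc1 encodes the mannose receptor CD206 (chr2:14229392-14332057, plus strand, with the microRNA gene Mir511 within it). Its HF mice lay between 316 and 496 normalized counts and its NP mice between 230 and 367, and 3 of the 5 HF mice exceeded all NP mice. The log2 fold change of Mrc1 was 0.40 (95% interval −0.00 to 0.80, adjusted p = 0.384, edgeR). Mgl2 encodes CD301b, a lectin that binds galactose-type sugars (chr11:70130329-70137550, plus strand). Its counts were 198, 172, 201, 206, and 192 in NP and 186, 266, 239, 253, and 241 in HF. Apart from HF mouse 1 at 186, the HF mice were above all NP mice, and the log2 fold change was 0.29 (95% interval −0.00 to 0.58, adjusted p = 0.382, edgeR). The neighboring gene Clec10a encodes a near copy of this lectin, and 6.56% of the 75-base stretches of Mgl2 transcripts were shared with it, the nearest 39 bases from a 3′ end. How many Mgl2 reads came from shared stretches was not measured, and Mgl2 counts are uncertain for that reason.

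Cd163 encodes the receptor for hemoglobin bound to haptoglobin (chr6:124304656-124330527, plus strand). Its HF mice measured 264, 447, 318, 133, and 156 normalized counts, and its NP mice measured 249, 263, 252, 176, and 206. The HF mice thus lay on both sides of the NP range, 3 above all NP mice and 2 below all of them. The log2 fold change was 0.20 (95% interval −0.55 to 0.94, adjusted p = 0.891, edgeR), and it was −0.07 without HF mouse 2. Lyve1 encodes a hyaluronan receptor that macrophages share with lymphatic endothelium (chr7:110850607-110863239, minus strand). Its HF mice measured 1007, 1034, 963, 717, and 638 normalized counts compared to 648, 481, 822, 554, and 717 in NP. HF mice 1, 2, and 3 stood above all NP mice and the other two stood within their range, and the log2 fold change was 0.44 (95% interval −0.05 to 0.92, adjusted p = 0.458, edgeR). Lymphatic endothelial markers, which bear on Lyve1, had a median log2 fold change of −0.01 over 5 genes, with Pdpn at 0.51 and Reln at −0.57 (adjusted p = 0.193 and 0.303). Prox1 held most of their counts, with a mean of 1872 in NP, where the median sum of the list was 2314. How far the list follows lymphatic endothelium in whole ventricle was not tested.

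Timd4 encodes a phosphatidylserine receptor for dying cells (chr11:46810800-46844332, plus strand). Its raw counts ran from 6 to 72 reads with a median of 18, so counting error alone was large. In HF + LP mouse 5, with 6 reads, the 95% Poisson interval was 2.20 to 13.1 reads, which covers counting error only. The HF and NP mice overlapped, and the log2 fold change of Timd4 was 0.32 (95% interval −0.35 to 0.98, adjusted p = 0.766, edgeR). Cbr2, a carbonyl reductase (chr11:120729489-120732114, minus strand), lay between 583 and 800 normalized counts in HF and between 446 and 623 in NP. Its log2 fold change was 0.39 (95% interval −0.11 to 0.89, adjusted p = 0.548, edgeR). Its transcripts shared 8.31% of their 75-base stretches with Gm11771, so its reads could be split between the pair. Pf4 encodes the chemokine CXCL4, made by platelets and by resident macrophages (chr5:90772435-90773383, plus strand). Its HF mice measured 1073, 973, 1106, 1157, and 1077 normalized counts, and its NP mice measured 998, 969, 816, 813, and 725. Only HF mouse 2 fell within the NP range, and the log2 fold change was 0.32 (95% interval −0.04 to 0.67, adjusted p = 0.461, edgeR). Platelet markers, which bear on Pf4 and F13a1, were above 0 in 6 of 7 genes with a median of 0.25, and their sums were 134 to 245 normalized counts in HF and 130 to 208 in NP. No platelet gene was at 0 throughout either group, and the part of platelets in Pf4 and F13a1 was not tested.

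**Figure D2:**
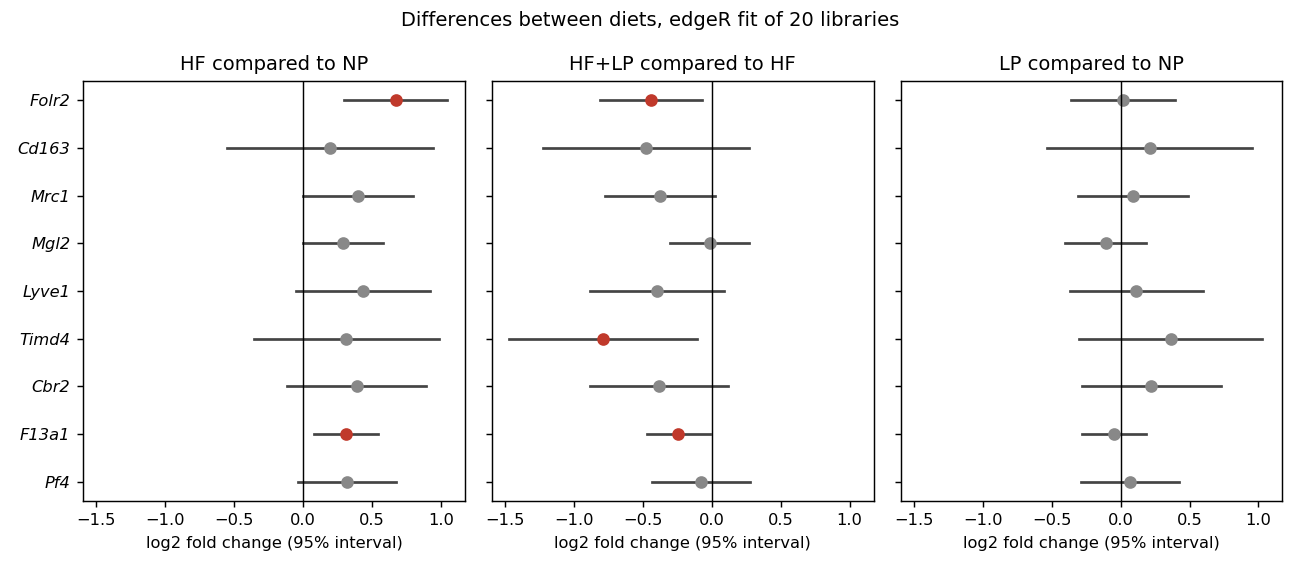
Log2 fold changes of the 9 genes (points) with their 95% intervals (lines) for HF compared to NP, HF + LP compared to HF, and LP compared to NP, from 1 edgeR fit of 20 libraries. Red points have an unadjusted p under 0.05, which is Folr2 and F13a1 in the left panel and Folr2, Timd4, and F13a1 in the middle one, and no gene passed the adjusted threshold.

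The other macrophage genes gave the setting for these differences. General macrophage genes had a median log2 fold change of 0.54 in HF compared to NP, above 0 in 18 of 18, with 13 at an unadjusted p under 0.05. Of these, 4 were higher at an adjusted p under 0.05 and none passed 0.01, namely Fcgr1 (log2 fold change 1.26, adjusted p = 0.0147, edgeR), Cx3cr1 (1.15, 0.017), Ms4a7 (0.80, 0.0203), and Tyrobp (0.65, 0.0306). Monocyte-derived macrophage genes had a median of 0.95 over the 13 tested, and 2 of them rose, the chemokine Ccl6 (log2 fold change 1.01, adjusted p = 0.000674) and the lysosomal protease Ctss (0.95, 0.00489). In the same list Cd44, Ccl9, and Ms4a6c were higher at an adjusted p under 0.05, with log2 fold changes of 0.86, 0.94, and 1.13. A further 18 genes of resident macrophages outside the main 9 had a median of 0.24, with 17 above 0. Among these, Ccl8 rose (log2 fold change 1.42, adjusted p = 0.00782), a chemokine that resident macrophages secrete, from 82.6 ± 16.5 normalized counts in NP to 221 ± 34.9 in HF. Fcrls and Fcna had log2 fold changes of 0.61 and 0.52 and adjusted p of 0.123 and 0.301 (edgeR). The MHC class II genes had a median of 0.22 with none at an unadjusted p under 0.05.

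Each list was also given a score per mouse from log2 CPM, the log2 count of a gene relative to the size of its library. The score is the average over the list after subtraction of each gene's own 20-mouse mean. The 9 resident genes scored 0.26 ± 0.11 in HF mice, −0.09 ± 0.06 in NP mice, −0.06 ± 0.38 in LP mice, and −0.11 ± 0.20 in HF + LP mice (SD, n = 5). The general macrophage score was −0.22 ± 0.15 in NP and 0.37 ± 0.18 in HF, and the monocyte-derived score was −0.40 ± 0.09 and 0.48 ± 0.27. The resident genes minus the general macrophage score came to −0.11 ± 0.21 in HF mice, 0.13 ± 0.19 in NP mice, 0.08 ± 0.20 in LP mice, and −0.09 ± 0.30 in HF + LP mice. The mice of the 4 diets overlapped in this difference, and it was not tested.

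**Figure D3:**
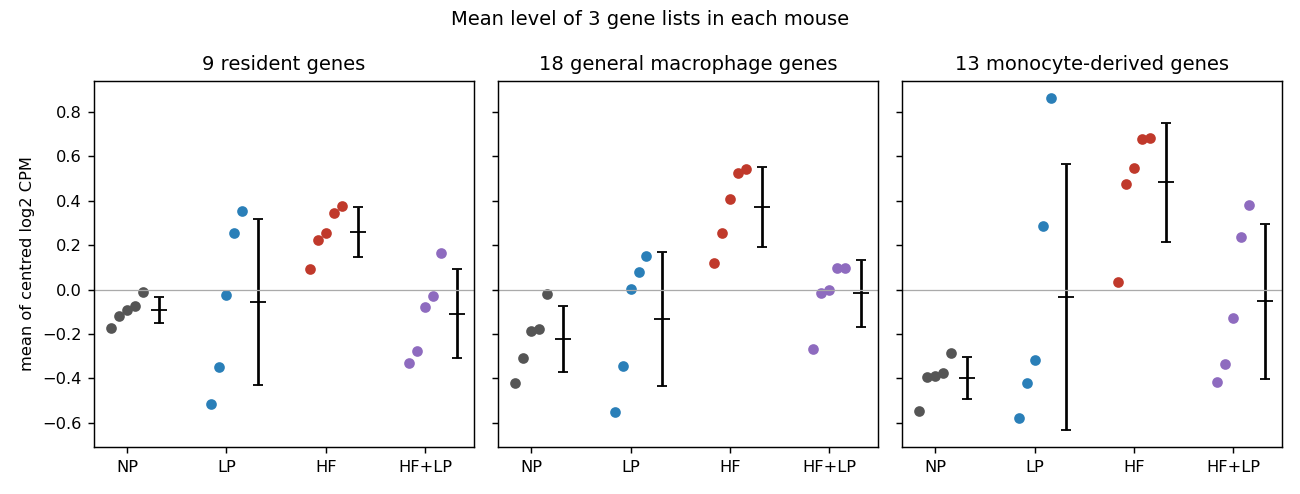
Mean centred log2 CPM (vertical axis) of the 9 resident genes, 18 general macrophage genes, and 13 monocyte-derived macrophage genes in single mice by diet, with the mean and SD of each group. The 5 HF mice lie above the 5 NP mice in all 3 panels, and LP mice span from −0.52 to 0.35 in the resident genes.

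Markers of other heart cells were also compared between HF and NP, and none of the 4 lists that follow held a called gene. Cardiomyocyte markers had log2 fold changes below 0 in 8 of 8 genes, with a median of −0.19, and Myh6 at −0.70 (adjusted p = 0.0124, edgeR). Their sum lay between 656150 and 830200 normalized counts in HF and between 809370 and 955940 in NP. Fibroblast markers were above 0 in 8 of 8 genes with a median of 0.18, led by Col3a1 at 0.87 (adjusted p = 0.0217), and their sums were 29203 to 40389 in HF and 27950 to 35736 in NP. Atrial markers were above 0 in 4 of 4 genes (median 1.31), with sums of 1876 to 204490 in HF and 2423 to 60406 in NP. The median atrial sum went the other way, 3228 in HF and 20853 in NP, as did the mean atrial score, −0.35 and 0.79. Red cell markers were above 0 in 5 of 5 (median 0.58, 1 at an unadjusted p under 0.05), with sums of 102190 to 223500 and 60801 to 178250. No gene of these 4 lists was at 0 throughout either group, and the part of these markers in the levels of the 9 genes was not tested. A mixed list of 12 genes, holding growth factors, chemokines, cytokine receptors, and genes of hemoglobin and iron handling, had a median of 0.20, with Il4ra, a chain of the interleukin-4 receptor, at 0.79 (adjusted p = 0.039).

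Protein restriction on the high-fat diet was then addressed by comparing HF + LP with HF mice. Each of the 9 genes had a lower fitted level in HF + LP, with log2 fold changes from −0.79 for Timd4 to −0.02 for Mgl2 and a median of −0.38. Over all genes tested the median was 0.02, and 53.7% were above 0. None of the 9 was called and none of all genes was (0%) in edgeR, where 677 genes had an unadjusted p under 0.05, and DESeq2 called 16 genes and none of the 9. At an unadjusted p under 0.05, 3 of the 9 were lower, compared to 2.43% of all genes, and no gene of the 9 was free of overlap between the groups, which 0.636% of all genes were with a lower level in HF + LP. That count of 3 depended on single mice, since it was 0 without HF mouse 5 and 1 without HF mouse 3, HF + LP mouse 4, or HF + LP mouse 5. It was 4 with DESeq2, with only the HF + LP and HF libraries in the fit, or with the digit of the library name as a covariate. It was also 4 without LP mouse 20 or HF + LP mouse 3, and it was 5 with the animal number as a block. The smallest adjusted p among the 9 was 0.811. These values share the HF mice with the comparison above, so the directions of both are not independent.

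Folr2 measured 110, 126, 208, 170, and 148 normalized counts in HF + LP mice. Apart from HF + LP mouse 3 at 208, these lay below all HF mice, and the log2 fold change compared to HF was −0.44 (95% interval −0.81 to −0.07, unadjusted p = 0.0221, adjusted p = 0.811, edgeR). F13a1 measured 634, 739, 702, 645, and 539 in HF + LP, and 4 of the 5 mice lay below all HF mice. Its log2 fold change was −0.24 (95% interval −0.47 to −0.01, unadjusted p = 0.0397, adjusted p = 0.967, edgeR). Timd4 measured 18.8, 17.1, 21.9, 11.2, and 6.19 in HF + LP compared to 22.9, 21.1, 30.6, 23.8, and 31.5 in HF. HF + LP mouse 3 alone reached into the HF range, and the log2 fold change was −0.79 (95% interval −1.47 to −0.11, unadjusted p = 0.0257, adjusted p = 0.846, edgeR).

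Lyve1, Cd163, Mrc1, and Cbr2 had log2 fold changes of −0.40, −0.48, −0.38, and −0.38 in HF + LP compared to HF, each with an interval that included 0. In Lyve1 the HF + LP mice measured 941, 656, 722, 368, and 620 normalized counts, with mouse 4 lowest. Cd163 measured 292, 183, 209, 95.2, and 161 in the same mice, with mouse 4 again lowest and mouse 1 again highest. Cbr2 was also lowest in HF + LP mouse 4, at 345, whereas Mrc1 was lowest in HF + LP mouse 5, at 178. Mgl2 and Pf4 stood apart from the others by their mean levels. Mgl2 measured 183, 202, 227, 263, and 297 in HF + LP, a mean of 235 ± 46.0 compared to 237 ± 30.8 in HF. Its log2 fold change was −0.02 with a 95% interval of −0.31 to 0.27, so differences within that interval were not excluded. Pf4 averaged 1019 ± 148 in HF + LP and 1077 ± 67.5 in HF, with a log2 fold change of −0.08 and a 95% interval of −0.43 to 0.27. Platelet markers were above 0 in 7 of 7 genes with a median of 0.50, and their sums were 89.6 to 661 normalized counts in HF + LP and 134 to 245 in HF. The highest was HF + LP mouse 3, and the median platelet sum went the other way, 167 in HF + LP and 185 in HF. Whether these 2 genes differed in their response from the other 7 was not tested.

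General macrophage genes were lower in HF + LP than in HF in 18 of 18 by fitted value, with a median of −0.36 and 6 at an unadjusted p under 0.05. Fcgr1 had the smallest p of the list, with a log2 fold change of −1.03 (unadjusted p = 0.000418, adjusted p = 0.217, edgeR). Monocyte-derived genes had a median of −0.53 and 7 of 13 at an unadjusted p under 0.05, and Ccr2, named after its values were seen, had 0.13 (adjusted p = 0.999). Ccr2 had 0.54 in HF compared to NP (unadjusted p = 0.00982, adjusted p = 0.185, edgeR), with 4 of the 5 HF mice above all NP mice. It had 0.67 in HF + LP compared to NP (unadjusted p = 0.00213, adjusted p = 0.236, edgeR). In that comparison Ccr2 had no overlap, which held for 0.965% of all genes with a higher level in HF + LP. Ccl8 averaged 125 ± 48.2 normalized counts in HF + LP, between its NP and HF means. Fibroblast markers were below 0 in 8 of 8 genes (median −0.26), adipocyte markers in 6 of 6 (median −1.88), and atrial markers in 4 of 4 (median −1.36), with no gene of these lists at an adjusted p under 0.05. Red cell markers were above 0 in 5 of 5 genes (median 0.24) and cardiomyocyte markers in 7 of 8 (median 0.17), with red cell sums of 82070 to 313600 in HF + LP and 102190 to 223500 in HF and cardiomyocyte sums of 642260 to 925510 and 656150 to 830200. The adipocyte sums were 12.3 to 191 normalized counts in HF + LP and 8.80 to 1161 in HF, where HF mouse 3 was highest, and their medians went the other way, 17.7 and 16.1. The atrial sums were 970 to 87124 and 1876 to 204490, and none of these genes was at 0 throughout either group. The part of these markers in the levels of the 9 genes was not tested.

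Protein restriction without added fat was addressed by comparing LP with NP mice. Of the 9 genes, 7 were above 0 and 2, F13a1 and Mgl2, below 0, with a median log2 fold change of 0.09 compared to 0.02 over all genes, of which 54.6% were above 0. Without LP mouse 13 alone, 3 of the 9 were above 0 and the median was −0.06. None of the 9 had an unadjusted p under 0.05, which 5.02% of all genes had with a higher level in LP, and 2.21% with a lower level. No gene of all tested was called (0%) by edgeR, where 1012 had an unadjusted p under 0.05, and DESeq2 called 3 genes and none of the 9. The log2 fold changes ran from −0.11 for Mgl2 to 0.36 for Timd4, and the adjusted p of the 9 genes lay between 0.891 and 0.997. General macrophage genes were above 0 in 14 of 18 (median 0.10, 1 at an unadjusted p under 0.05) and monocyte-derived genes in 11 of 13 (median 0.21, 5 at that level). The monocyte-derived score was 0.29 and 0.86 in LP mice 13 and 20 and at most −0.32 in the other LP mice. MHC class II genes were above 0 in 6 of 6 (median 0.51) and red cell markers in 5 of 5 (median 0.61). Cardiomyocyte markers were below 0 in 8 of 8 (median −0.21). The part of these lists was not tested.

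The spread between LP mice was wide in several genes. The coefficient of variation was highest in LP for Timd4, Folr2, Cd163, Cbr2, F13a1, and Pf4, and in HF + LP for Lyve1, Mrc1, and Mgl2. Cd163 measured 149, 123, 432, 405, and 212 normalized counts in LP mice 2, 5, 13, 15, and 20. LP mice 13 and 15 were above, and LP mice 2 and 5 below, all NP mice. Timd4 followed the same mice, with 45.3 and 36.5 normalized counts in LP mice 13 and 15 and between 15.8 and 20.0 in the other three. Cbr2 reached 1061 in LP mouse 20 and measured 345, 323, 604, and 620 in LP mice 2, 5, 13, and 15. Pf4 reached 1430 in LP mouse 13 and lay between 645 and 976 in the other 4. LP mouse 5 was below the 20-mouse mean of log2 CPM in 9 of 9 genes, and LP mouse 13 was above it in 7 of 9. Without LP mice 13 and 20, a choice made after the data had been seen, the log2 fold changes were −0.06 for Lyve1, −0.03 for Cd163, −0.08 for Mrc1, −0.25 for Cbr2, and −0.15 for Pf4. Those mice hold some of the highest LP values, so leaving them out lowers the fold change by construction. Leaving out 1 mouse at a time, Lyve1 was below 0 without LP mouse 15, Cd163, Mrc1, and Pf4 without LP mouse 13, and Cbr2 without LP mouse 20. Platelet markers had a median log2 fold change of 0.98 in LP, with 7 of 7 above 0 and 4 at an unadjusted p under 0.05. The platelet sums were 200 to 399 normalized counts in LP and 130 to 208 in NP, no platelet gene was at 0 throughout either group, and their part in Pf4 and F13a1 was not tested. Atrial markers in LP were above 0 in 4 of 4 genes (median 1.36), with sums of 2198 to 245760 in LP and 2423 to 60406 in NP, and adipocyte markers in 6 of 6 (median 2.28), with sums of 80.0 to 5159 and 23.6 to 821. The adipocyte score was 5.09 and 4.06 in LP mice 13 and 20 and at most 0.09 in the other three, and the median adipocyte sum was 126 in LP and 158 in NP. The atrial score was 4.74, 3.25, 1.59, −0.75, and −4.53 in LP mice 13, 15, 20, 2, and 5. The score of the 9 genes stood in the same order in these mice, at 0.35, 0.26, −0.02, −0.35, and −0.52, as did Cd163. The full order was not repeated in the other diets. HF mouse 2 had the highest score of the 9 genes in HF (0.38) with an atrial score of −3.50. HF + LP mouse 4 had the lowest of its group (−0.33) with an atrial score of 1.26. HF mice 1 and 3 had the highest atrial scores in HF, 4.66 and 3.44, and scored 0.25 and 0.35 in the 9 genes. HF + LP mouse 3 was highest of its group in both the atrial score and that of the 9 genes (3.52 and 0.17), as was NP mouse 5 (2.97 and −0.01). No atrial or adipocyte gene was at 0 throughout LP or NP, and their part in the levels of the 9 genes was not tested.

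**Figure D4:**
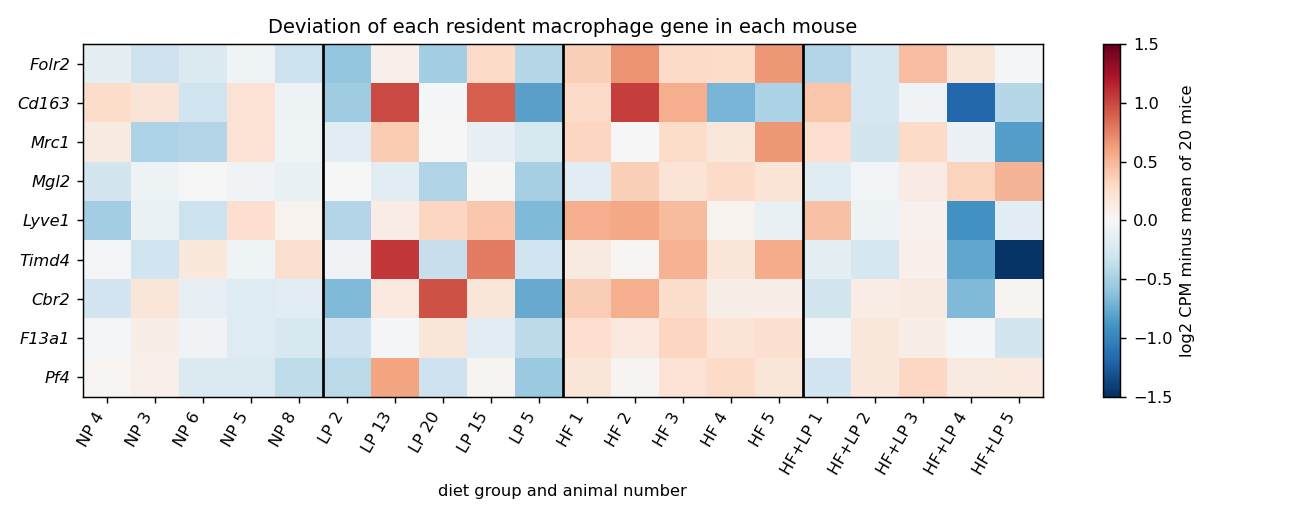
Log2 CPM of each of the 9 genes (rows) in each of the 20 mice (columns, grouped by diet and named by animal number), as the difference from the gene's mean over the 20 mice, with red above and blue below. HF mouse 3 is above the mean in 9 of 9 genes, LP mouse 5 is below it in 9 of 9, and LP mice 13 and 15 stand out in Cd163 and Timd4.

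Fat was also compared on the low protein background. Between HF + LP and LP mice, 4 of the 9 genes were above 0, compared to 45.8% of all genes, and 5 below, with a median log2 fold change of −0.07 compared to −0.03 over all genes. The median was 0.10 with 6 of 9 above 0 without LP mouse 20, 0.05 without LP mouse 13, 0.04 without LP mouse 15, 0.08 without HF + LP mouse 4, and 0.07 without HF + LP mouse 5. No gene of the 9 was called, compared to 0.1% of all genes. General macrophage genes were above 0 in 11 of 18 (median 0.15, 3 higher and 1 lower at an unadjusted p under 0.05). Monocyte-derived genes were above 0 in 7 of 13 (median 0.08, also 3 higher and 1 lower). Endothelial markers were above 0 in 3 of 7 (median −0.00), and 1 of them was higher at an adjusted p of 0.0226 (edgeR). Adipocyte markers were below 0 in 6 of 6 genes (median −4.73, all 6 at an unadjusted p under 0.05), with sums of 12.3 to 191 in HF + LP and 80.0 to 5159 in LP, and atrial markers in 4 of 4 (median −1.48), with sums of 970 to 87124 and 2198 to 245760. None of these genes was at 0 throughout either group, and their part in the levels of the 9 genes was not tested. Mgl2 had a log2 fold change of 0.38 (95% interval 0.09 to 0.67, unadjusted p = 0.0125, adjusted p = 0.185, edgeR), and 3 of the 5 HF + LP mice lay above all LP mice. Timd4 had −0.83 (95% interval −1.51 to −0.15, unadjusted p = 0.0187, adjusted p = 0.213), with 2 HF + LP mice below all LP mice. Without HF + LP mouse 5 neither gene had an unadjusted p under 0.05. An unadjusted p under 0.05 was seen in 6.26% of all genes with a higher level in HF + LP and in 9.66% with a lower level. Between HF + LP and NP mice, 7 of the 9 genes were above 0, compared to 50.2% of all genes, with a median log2 fold change of 0.04. None of the 9 had an unadjusted p under 0.05, which 8.77% of all genes had, and none was called, compared to 0.0286% of all genes. The largest value there was Timd4 at −0.47 (95% interval −1.17 to 0.22, adjusted p = 0.755), followed by Cd163 at −0.28 and Mgl2 at 0.27. General macrophage genes were above 0 in 16 of 18 (median 0.24, 2 at an unadjusted p under 0.05) and monocyte-derived genes in 11 of 13 (median 0.46, 5 at an unadjusted p under 0.05). Platelet markers were above 0 in 7 of 7 genes (median 0.89, 2 at an unadjusted p under 0.05), with sums of 89.6 to 661 in HF + LP, highest in HF + LP mouse 3, and 130 to 208 in NP, and median sums of 167 and 156. Red cell markers were above 0 in 5 of 5 (median 0.87, 4 at an unadjusted p under 0.05), with sums of 82070 to 313600 and 60801 to 178250. Adipocyte markers were below 0 in 6 of 6 (median −2.46), with sums of 12.3 to 191 and 23.6 to 821. None of these genes was at 0 throughout either group, and their part in the levels of the 9 genes was not tested.

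The interaction of fat and protein asks whether the log2 fold change between HF + LP and LP differed from that between HF and NP. It was below 0 in 8 of the 9 genes, with a median of −0.47, where 49% of all genes were above 0. It was 0.09 in Mgl2 (95% interval −0.32 to 0.50). Timd4 had the largest value, −1.15 (95% interval −2.10 to −0.20, unadjusted p = 0.0205, adjusted p = 0.683, edgeR), and was the 1 gene of the 9 at an unadjusted p under 0.05, compared to 4.31% of all genes below 0. Without LP mouse 13 none of the 9 was at an unadjusted p under 0.05. There were 2 without LP mouse 5 or LP mouse 20 and 3 without LP mouse 2 or HF + LP mouse 3. With the animal number as a block, 6 of the 9 were above 0, with a median of 0.13. No gene was called for the interaction (0%) by edgeR, where 1003 genes had an unadjusted p under 0.05. The interaction was also below 0 in 18 of 18 general macrophage genes (median −0.49, 4 at an unadjusted p under 0.05) and in 12 of 13 monocyte-derived genes (median −0.70, 9 at an unadjusted p under 0.05). Among the other lists it was below 0 in 6 of 6 adipocyte markers (median −4.34, 4 at an unadjusted p under 0.05), 4 of 4 atrial (−2.75), 7 of 7 platelet (−0.44), 5 of 5 red cell (−0.44), 6 of 6 MHC class II (−0.39), and 7 of 8 fibroblast markers (−0.25), and above 0 in 8 of 8 cardiomyocyte markers (0.33). The part of these markers in the interaction of the 9 genes was not tested.

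By mean level, HF was the highest diet for 7 of the 9 genes and LP for Timd4 and Cd163. For Cd163 the means were 264.2 in LP and 263.5 in HF, and the medians of both genes were lower in LP than in HF, 212 and 264 for Cd163 and 20.0 and 23.8 for Timd4. NP was lowest for 5 genes (Lyve1, Folr2, Mrc1, Cbr2, and Pf4), LP for F13a1 and Mgl2, and HF + LP for Timd4 and Cd163. The ratio of the highest to the lowest mean ran from 1.25 in Pf4 to 1.78 in Timd4. Of neighbors in these orders, none had groups that were free of overlap, and the pair of HF above NP without overlap in Folr2 and F13a1 was not between neighboring diets.

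The 9 genes also varied among themselves within diets. After removal of each diet mean, 29 of the 36 pairs of genes had a Pearson correlation above 0 over the 20 mice, with a median of 0.278. The median was 0.187 without LP mouse 13. All pairs share the same libraries and their depth, and the correlations are given as a description. The highest were Lyve1 with Cd163 (0.795), Lyve1 with Cbr2 (0.687), Timd4 with Mrc1 (0.662), Cbr2 with F13a1 (0.652), and Folr2 with Pf4 (0.600). Mgl2 had a correlation below 0 with 6 of the other genes, the lowest of all pairs being Mrc1 with Mgl2 (−0.408), and above 0 with Folr2 (0.439) and Pf4 (0.278).

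Correlation with the level of macrophages in general was examined for each gene after removal of each diet mean. The test used 100000 permutations within diets, in a family of 13 relations. None of the 13 had an adjusted p under 0.05. The largest Pearson correlations with the general macrophage score were those of Cbr2 (r = 0.535, permutation p = 0.101, adjusted p = 0.328; rho = 0.408, permutation p = 0.138, adjusted p = 0.450) and Folr2 (r = 0.513, permutation p = 0.0693, adjusted p = 0.308; rho = 0.517, permutation p = 0.0554, adjusted p = 0.360). Without LP mouse 5 and HF mouse 1, the mice farthest from the median score after removal of diet means, r was 0.427 for Cbr2 and 0.507 for Folr2. Mgl2 had an r of 0.497 (permutation p = 0.0547, adjusted p = 0.308; rho = 0.499, permutation p = 0.051, adjusted p = 0.360), which was 0.234 without those mice. Mrc1 had the lowest, an r of −0.01 (permutation p = 0.949, adjusted p = 0.949; rho = −0.02, permutation p = 0.942, adjusted p = 0.942). Lyve1 had an r of −0.20 with the lymphatic score (permutation p = 0.491, adjusted p = 0.738; rho = −0.19, permutation p = 0.491, adjusted p = 0.768). Pf4 and F13a1 had r of 0.260 and 0.082 with the platelet score (permutation p = 0.309 and 0.786, adjusted p = 0.715 and 0.852; rho = 0.263 and 0.105, permutation p = 0.333 and 0.709, adjusted p = 0.768 each). Conventional dendritic cells can also express Mgl2, which had an r of 0.436 with the score of 3 dendritic cell genes (permutation p = 0.071, adjusted p = 0.308; rho = 0.388, permutation p = 0.112, adjusted p = 0.450). Without NP mouse 6 and LP mouse 5 this r was 0.320.

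The mean of the 8 better measured genes, all but Timd4, was then compared with 10151 other genes over the 20 mice. Each diet mean was removed first, so differences between diets do not enter. The genes most like it within diets were taken by Pearson correlation. They were Sulf1 (0.866), Apoe (0.865), Spaca6 (0.863), Ahsg (0.860), Fmo2 (0.851), Ucp2 (0.850), Il33 (0.845), and Adh1 (0.839). Apoe encodes the lipoprotein component apolipoprotein E, Il33 an alarmin cytokine of stromal cells, and Ucp2 a mitochondrial carrier. Without LP mouse 13 their correlations lay between 0.789 and 0.835. These values rest on the same libraries and are a description of likeness in level.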

How the data were processed

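Left ventricular RNA of 20 mice was measured, 5 per diet. The authors prepared QuantSeq 3′ libraries, aligned 75 bp reads with BlueBee software, and deposited raw counts per Ensembl gene, and the submitters' processing notes name GRCm38 and DESeq2 1.22.2. The annotation and counting program were not given in the sources used here, and each of the 15956 listed genes had at least 60 counts over the 20 libraries. Because reads come from the 3′ end of transcripts, counts do not grow with gene length, and levels were not compared between genes. Total counts were 12559607 to 23331907.

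Groups came from the diet labels. Symbols were found for 15917 genes, and coordinates are those of GENCODE M21. The fit used edgeR 4.0.16 in R 4.3.3 (filterByExpr by diet, TMM, quasi-likelihood fit of all 20 libraries, Benjamini-Hochberg adjustment over 13991 genes). A call needed an adjusted p below 0.01 together with a mean above 50 normalized counts. Intervals of log2 fold changes came from the F statistic, and log2 CPM used a prior count of 2. The test was checked on simulated counts of 13817 genes for HF compared to NP, where it called 84 of 100 genes changed by a log2 fold change of 1.5 and 35 of 100 changed by 0.75.

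Alternatives were RLE size factors, DESeq2 1.42.0, a looser threshold (adjusted p below 0.05), no minimum mean, no filter or a filter at 10 counts per library, and a fit of only the groups compared. The animal number was tried as a block and the digit of the library name as a covariate, each mouse was left out in turn, and a prior count of 0.5 was tried for scores. The 9 genes and all lists were chosen with earlier results of these data known. Named list genes are those at an adjusted p under 0.05 and up to 4 per list with the smallest p in HF compared to NP, and not all are printed.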

Additional observations from a re-analysis of the deposited data

How the results depend on the processing

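None of the 1605 alternative values of the 9 genes passed the threshold of its setting, and 67 changed sign. In HF compared to NP, 267 of 269 were above 0, the exceptions being Cd163 at −0.36 with the animal number as a block and −0.075 without HF mouse 2, and the smallest adjusted p was 0.011 (Folr2, only the groups compared). In HF + LP compared to HF, 264 of 269 were below 0 and the smallest adjusted p was 0.397. The number of genes called in HF compared to NP was 37 in edgeR, 158 in DESeq2, 61 with only the groups compared, 157 with the looser threshold, and 2 with the block. Calls by edgeR and DESeq2 numbered 0 and 16 for HF + LP compared to HF, 14 and 81 for HF + LP compared to LP (0 with only the groups compared), 4 and 30 for HF + LP compared to NP (2 and 1 with only the groups compared and with the block), and 0 and 3 for LP compared to NP. Leaving out each mouse in turn, edgeR called 20 to 69 genes in HF compared to NP, 0 to 1 in HF + LP compared to HF, 1 to 16 in HF + LP compared to LP, and 2 to 10 in HF + LP compared to NP. Low counts limit Timd4 most, and with 5 mice a group differences of the size seen here were often not detectable.

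The animal numbers did not pair the mice. Correlations of same-numbered mice ran from −0.482 to 0.130 over 3 pairs of NP and HF and from −0.553 to 0.476 over 5 pairs of HF and HF + LP. They were 0.208 for the 1 pair of NP and LP, −0.107 to 0.196 over 2 pairs of LP and HF, −0.018 to 0.375 over 2 pairs of LP and HF + LP, and −0.284 to 0.154 over 3 pairs of NP and HF + LP. LP mice 13, 15, and 20 carry numbers that no other group has, so contrasts with LP under the block rest on LP mice 2 and 5. With the replicate block, the median of the 9 genes was −0.32 in LP compared to NP, 0.47 in HF + LP compared to LP, and 0.13 for the interaction. With the block the log2 fold changes in LP compared to NP were −0.66 for Lyve1, −0.0023 for Timd4, −0.32 for Folr2, −1.26 for Cd163, −0.093 for Mrc1, −0.77 for Cbr2, and −0.35 for Pf4. They were 0.47 for Lyve1, 0.45 for Cd163, 0.011 for Mrc1, and 0.68 for Cbr2 in HF + LP compared to LP, and in HF + LP compared to NP −0.19 for Lyve1, −0.082 for Mrc1, and −0.089 for Cbr2. The interaction with the block was 0.22 for Lyve1, 0.81 for Cd163, 0.37 for Cbr2, 0.027 for F13a1, and 0.26 for Pf4. With the library digit as a covariate Mrc1 was −0.019 in HF + LP compared to NP.

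Without LP mice 13 and 20, chosen after the data had been seen, the median in HF + LP compared to LP was 0.21, with Lyve1 at 0.10, Mrc1 at 0.092, and Cbr2 at 0.25. In LP compared to NP, Lyve1 was −0.060, Cd163 −0.033, Mrc1 −0.076, Cbr2 −0.25, and Pf4 −0.15, and the interaction was 0.064 for Pf4. Without the 2 mice farthest from the median score, the correlations with the macrophage score were −0.0047 for Lyve1, −0.099 for Timd4, and −0.088 for Cd163, and that of F13a1 with the platelet score was −0.053.

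Leaving out each mouse in turn gave these ranges where a sign changed. Cd163 ran from −0.075 to 0.37 in HF compared to NP. For HF + LP compared to HF, Mgl2 ran from −0.12 to 0.060 and Pf4 from −0.17 to 0.0042. In LP compared to NP, Lyve1 ran from −0.0055 to 0.24, Folr2 from −0.13 to 0.096, Cd163 from −0.057 to 0.39, Mrc1 from −0.037 to 0.18, Cbr2 from −0.10 to 0.37, F13a1 from −0.13 to 0.012, and Pf4 from −0.16 to 0.17. For HF + LP compared to LP, Lyve1 ran from −0.23 to 0.077, Mrc1 from −0.16 to 0.073, and Cbr2 from −0.37 to 0.10. For HF + LP compared to NP, Lyve1 ran from −0.12 to 0.19, Mrc1 from −0.075 to 0.16, and Cbr2 from −0.051 to 0.12. The interaction ran from −0.0071 to 0.17 for Mgl2 and from −0.25 to 0.077 for Pf4. Correlations with the macrophage score ran from −0.078 to 0.36 for Lyve1, −0.051 to 0.31 for Timd4, −0.11 to 0.29 for Cd163, and −0.15 to 0.11 for Mrc1, and F13a1 with the platelet score ran from −0.065 to 0.25. The number of relations with an adjusted p under 0.05 ran from 0 to 1, and the 1 was Mgl2 with the macrophage score without LP mouse 20.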

Other observations

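Each of the 9 genes was examined in each diet for a mouse far from the other 4 by Dixon's criterion (critical value 0.71 for 5 mice). None of the 36 groups held such a mouse. LP mouse 5 had the lowest mean of the 9 genes over the 20 mice, −0.52 on the centred log2 CPM scale, and HF mouse 2 the highest, 0.38.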
